A study of Drosophila melanogaster with 8 samples.

Results

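Genes of oxidative phosphorylation and the citrate cycle were examined in whole Drosophila melanogaster females. Of 37 listed symbols, 34 had a row of that name among 15296 gene models, and these 34 are the genes described. ND51 and Cyt-c1 had no row of that name, and oxen is another name of ox. By function the 34 were 5 genes of complex I, 3 of complex II, 2 of complex III, the cytochrome c gene Cyt-c-p, 7 of complex IV, 9 of ATP synthase, 2 of carriers and pores and 5 of the citrate cycle. All 34 reached the mean of 1 FPKM that a gene needed to be tested, and none was listed at 0 in any library.

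The libraries came from A12/A12 and A4/A4 females at 2 stages, as larvae of the third instar and as adults of 2 to 3 days, reared at 18 °C. A4/A4 animals carry the inversion In(2)A4 on both copies of chromosome 2, and the series describes them by position effect variegation, in which genes moved close to heterochromatin are silenced in some cells only. A12/A12 animals are its wild type, and no further allele is given for them. A4/A4 larvae were selected by lack of fluorescence among the offspring of A4/CyO-GFP parents, in which the inversion is kept over a fluorescent balancer chromosome. Each of the 4 groups, A12 larvae, A4 larvae, A12 adults and A4 adults, held 2 libraries, 8 in all. Nothing says whether replicates came from separate cultures, so p-values measure the spread between these libraries only.

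Mitochondria oxidise acetyl groups in the citrate cycle, and the electrons released there enter the respiratory chain at complexes I and II. They pass through complex III and cytochrome c to complex IV, where oxygen is reduced. The proton gradient built on the way drives ATP synthase, and ATP leaves the organelle through the ADP/ATP carrier. In insects the flight muscle of the adult is especially rich in mitochondria.

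The unit of levels is FPKM, fragments counted relative to gene model length and library size. A log2 change is a difference of group means of log2(FPKM + 1), followed by its standard error, with 2 libraries in each group. A gene rose or fell where the limma p-value, adjusted over all 9679 tested genes, was below 0.05. No read counts were given, so the absolute depth behind a value is unknown. Relative to the A12 larvae, all tested genes in the A4 larvae had a median log2 change of -0.43, so larval changes are read beside that value.

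The library labelled A4 larvae replicate 2 went against its label as female. Of 25 testis marker genes, 17 reached 1 FPKM in it, against 2 to 3 in each of the other 7 libraries, and their summed level was 97.0 FPKM against 5.15 to 31.4 FPKM. Tests of the 34 genes that involve larvae are therefore also described without this library. Genes of small RNAs took 63.0% to 81.4% of a library's summed FPKM. Since FPKM is relative to gene model length, this is not their share of the fragments. Markers of adult females fitted the labels, since the 3 yolk protein genes summed to 5966 to 9230 FPKM in adults and 4.12 to 8.44 FPKM in larvae. The 6 larval fat body markers summed to at least 38245 FPKM in every larval library and at most 98.2 FPKM in adults.

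In every library the genes ranked high, and the adult libraries held far more of their RNA than the larval ones. The 34 genes were ranked among gene models with a mean of at least 1 FPKM, without small RNA genes. Their median percentile was 93.3 to 95.8 in larval libraries and 98.2 to 98.4 in adult ones. Their summed level was 5113 and 5322 FPKM in A12 larvae, 7141 and 8335 FPKM in A4 larvae, 31002 and 39038 FPKM in A12 adults, and 27386 and 27000 FPKM in A4 adults. The 4 groups did not overlap in this sum. A4 larvae stood 1.48-fold above A12 larvae, while A4 adults stood at 0.776 of A12 adults. Since these are whole animals, fewer cells of a type and less RNA per cell cannot be told apart.

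**Figure D1:**
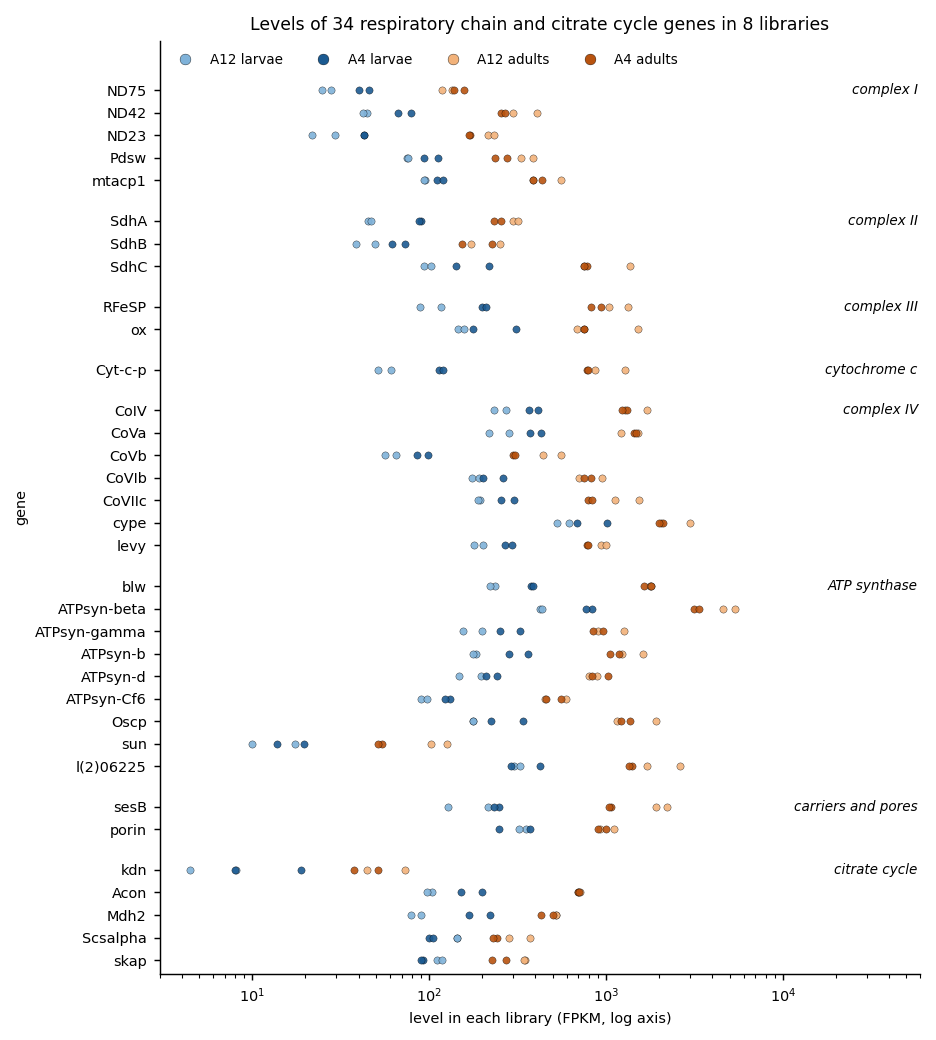
Level of each of the 34 genes in each of the 8 libraries, in FPKM on a log axis, with genes grouped by complex or pathway and points coloured by group. The gene at the bottom of the ATP synthase group is the subunit g gene, ATPsynG in RefSeq. Every gene is higher in the adult libraries than in the larval libraries of the same genotype, and most are higher in A4 larvae than in A12 larvae.

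The levels spanned a wide range within each complex. The highest gene was ATPsyn-beta, the catalytic subunit of ATP synthase, with 423 and 434 FPKM in A12 larvae, 831 and 768 FPKM in A4 larvae, 4624 and 5349 FPKM in A12 adults, and 3133 and 3351 FPKM in A4 adults. All 4 groups were separate, and A12 adults stood highest. The lowest genes were kdn, which encodes citrate synthase, and sun, which encodes the epsilon subunit of ATP synthase. In kdn the levels ran from 4.46 FPKM in A12 larvae to 73.3 FPKM in A12 adults, and the replicates of a group lay far apart. Among complex IV genes the highest was cype, with 532 and 619 FPKM in A12 larvae, 687 and 1014 FPKM in A4 larvae, 2042 and 3002 FPKM in A12 adults, and 2105 and 1997 FPKM in A4 adults. The acyl carrier protein gene mtacp1 led complex I and SdhC, a membrane anchor of succinate dehydrogenase, led complex II.

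The 34 genes lay on all major chromosome arms, with 10 on 3R, 9 on 2L, 6 on 2R, 5 on X, 3 on 3L and 1 on chromosome 4, so that 15 were on the inverted chromosome. Positions are those of the deposited files, in build dm3 and counted from 1. ATPsyn-beta is the gene on chromosome 4, at chr4:1052110-1055183. Cyt-c-p lies at chr2L:16719932-16722644, RFeSP at chr2L:1612429-1614160, Mdh2 at chr3R:14052118-14054440 and sesB at chrX:10674926-10680940. Each of these spans is a whole gene model with its exons and introns. Of the 34, 16 overlapped another annotated locus, among them sesB with Ant2, ox with mRpL18 and levy with pita, and reads of such pairs may have been split between them.

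The first comparison asked how A4 larvae differed from A12 larvae. Of the 34 genes, 11 rose in A4 larvae and 0 fell, where 8.75% of all tested genes rose and 25.9% fell. The median log2 change was 0.63 for these genes and -0.43 for all tested genes, and 31 of the 34 had a change above 0. Without the library labelled A4 larvae replicate 2, which leaves 1 library of A4 larvae, fewer of the 34 rose, and fewer of all tested genes did so. The median of all tested genes was then -0.46. In 28 of 34 genes both A4 libraries lay above both A12 libraries, where 16.1% of tested genes did so, and in 2 genes both lay below, against 56.5%.

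**Figure D2:**
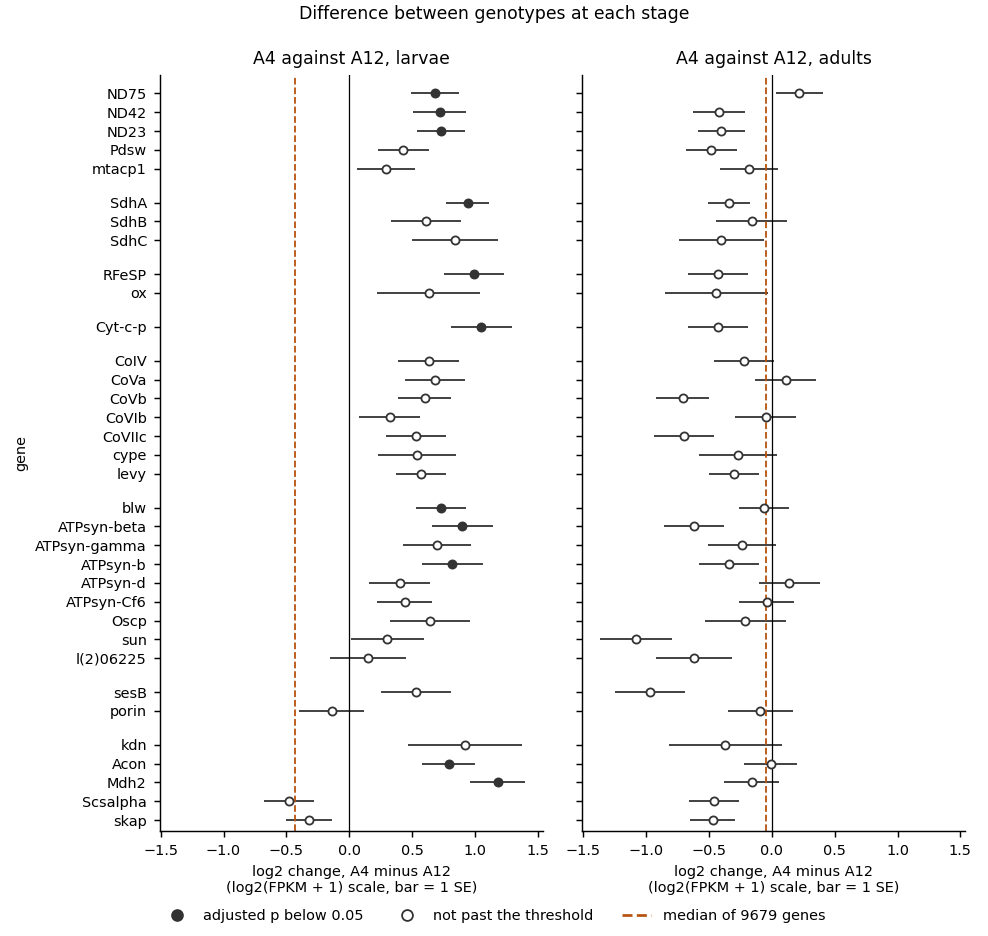
Log2 change of each gene between A4 and A12 in larvae (left) and adults (right), with bars of 1 standard error on the log2(FPKM + 1) scale. Filled points passed an adjusted p of 0.05, and the dashed line marks the median of all tested genes, -0.43 in larvae and -0.05 in adults. The larval points lie mostly to the right of 0, and the adult points mostly to the left with none filled.

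Complexes I to III each held genes that rose. In complex I, 3 of 5 rose, with a range over the 5 of 0.29 to 0.73. ND23, an iron-sulfur subunit, had 29.5 and 21.9 FPKM in A12 larvae and 43.0 and 42.9 FPKM in A4 larvae. Its groups did not overlap, and its log2 change was 0.73 ± 0.19 (adjusted p = 0.0269). The other complex I genes that rose were ND75, the largest iron-sulfur subunit, at 0.68 ± 0.19, and ND42 at 0.72 ± 0.21. Pdsw, an accessory subunit with 75.4 and 76.4 FPKM in A12 larvae and 94.0 and 112 FPKM in A4 larvae, and mtacp1 stood higher in both A4 libraries, at 0.43 ± 0.20 and 0.29 ± 0.23, but did not pass.

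In complex II, which is also the succinate dehydrogenase of the citrate cycle, SdhA rose. This flavoprotein subunit had 45.0 and 46.7 FPKM in A12 larvae and 90.7 and 87.7 FPKM in A4 larvae. The change, 0.94 ± 0.17 (adjusted p = 0.00676), exceeded the spread of the replicates. SdhB, the iron-sulfur subunit, was at 0.61 ± 0.28 and SdhC at 0.84 ± 0.34, neither past the threshold. The levels of SdhC were 93.9 and 102 FPKM in A12 larvae and 142 and 218 FPKM in A4 larvae, so the A4 libraries lay far apart but above both A12 libraries. In complex III the Rieske iron-sulfur protein gene RFeSP went from 89.2 and 117 FPKM in A12 larvae to 198 and 211 FPKM in A4 larvae. It rose by 0.99 ± 0.24 (adjusted p = 0.0191). The small subunit gene ox, at 0.63 ± 0.41, did not pass, and its A4 libraries differed widely, with 178 and 310 FPKM.

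Cyt-c-p, which encodes the cytochrome c of the soma, had 60.9 and 51.2 FPKM in A12 larvae and 113 and 120 FPKM in A4 larvae. It rose by 1.05 ± 0.24 (adjusted p = 0.0164). In complex IV none of the 7 genes passed on the deposited scale, but with each library centred on its median log2 value CoIV, CoVIIc, CoVa, CoVb and levy rose. All 7 stood above 0, from 0.32 for CoVIb to 0.68 for CoVa, with CoIV, CoVIIc, cype and levy between them. CoVb, the one with the smallest p, had 64.7 and 56.6 FPKM in A12 larvae and 86.0 and 99.3 FPKM in A4 larvae, which differed by 0.60 ± 0.21 (adjusted p = 0.0566). The groups of CoVb did not overlap. Whether complex IV differs from the other complexes was not tested.

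In ATP synthase 3 of 9 genes rose. These were ATPsyn-beta at 0.90 ± 0.24, ATPsyn-b of the peripheral stalk at 0.82 ± 0.24 and blw, the alpha subunit, at 0.73 ± 0.20. The levels of blw were 238 and 221 FPKM in A12 larvae and 375 and 387 FPKM in A4 larvae. The alpha and beta subunits form the catalytic head together, and their larval changes overlapped within their errors. The other 6 genes ranged from 0.15 ± 0.30 for the gene of subunit g, which RefSeq names ATPsynG, to 0.70 ± 0.27 for ATPsyn-gamma, the central stalk. Between these lay ATPsyn-d, ATPsyn-Cf6 and Oscp, all of the peripheral stalk, and sun. The levels of sun were 17.5 and 9.99 FPKM in A12 larvae and 19.7 and 13.9 FPKM in A4 larvae. In ATPsynG and sun the A4 and A12 larvae overlapped.

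Among the citrate cycle enzymes 2 of 5 rose and 2 had the opposite sign. Mdh2, mitochondrial malate dehydrogenase, had 90.2 and 79.6 FPKM in A12 larvae and 223 and 168 FPKM in A4 larvae. Its change of 1.18 ± 0.22 (adjusted p = 0.00763) was the highest of the 34 genes. Acon, aconitase, had 103 and 97.4 FPKM in A12 larvae and 200.4 and 151 FPKM in A4 larvae, which is higher by 0.79 ± 0.21 (adjusted p = 0.027). Scsalpha and skap encode the alpha and beta subunits of succinyl-CoA synthetase. Both stood lower in A4 larvae, and these were the 2 genes in which both A4 libraries lay below both A12 libraries.

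The levels of skap were 111 and 118 FPKM in A12 larvae and 92.9 and 89.9 FPKM in A4 larvae. Its log2 change was -0.32 ± 0.18 (adjusted p = 0.198), and that of Scsalpha was -0.48 ± 0.20 (adjusted p = 0.0969), so neither fell by the test. Both values lay close to the median of all tested genes, -0.43, and with each library centred on its median log2 value skap turned to 0.14. The outer membrane channel gene porin, at -0.14 ± 0.26, turned likewise to 0.32, and to 0.15 without A4 larvae replicate 1. The ADP/ATP carrier gene sesB had 216 and 128 FPKM in A12 larvae and 249.7 and 232 FPKM in A4 larvae, and at 0.53 ± 0.28 it did not pass, while after median centring it rose by 0.99 ± 0.23.

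Acon lies near a gene that differed strongly between the genotypes. Its span, chr2L:21168616-21173017, lies 6923 bp from Mcm10 and 1365 bp from bur. Mcm10, a DNA replication factor gene, had 2.05 and 1.06 FPKM in A12 larvae and 0.126 and 0.22 FPKM in A4 larvae, and it fell in A4 at both stages, in larvae by 1.10 ± 0.31 on the log2 scale (adjusted p = 0.033) and in adults by 3.33 ± 0.31 (adjusted p = 0.00373). After median centring the larval value was -0.64 ± 0.23 (adjusted p = 0.0934) and no longer passed. Acon was higher in A4 larvae, and in adults it had 696 and 715 FPKM in A12 adults and 700 and 704 FPKM in A4 adults. Where the inversion breaks the chromosome was not analysed here.

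Only SdhA and Mdh2 passed in each of the 8 fits that left out 1 library. Each of the other 9 genes passed in only some of them. In each of these fits fewer of all tested genes rose than with all 8 libraries. Fitting the larval libraries alone lowered the count that rose to 2, where 422 of 9679 tested genes rose. Centring each library on its median log2 value raised the count to 21, where 13.7% of all tested genes rose and 10.1% fell.

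Markers of muscle and midgut were also higher in A4 larvae. The 25 muscle markers summed to 4186 and 5993 FPKM in A12 larvae and 12081 and 10675 FPKM in A4 larvae. Of the 23 tested, 10 rose and 1 fell, with a median log2 change of 0.82. The midgut markers, 20 gene models including trypsin and maltase genes, summed to 9709 and 17675 FPKM in A12 larvae and 21868 and 40395 FPKM in A4 larvae. Of the 16 tested, 12 rose and 0 fell, with a median of 1.92. The part of both tissues in the higher levels of the respiratory genes was not tested. The deltaTry gene and the 3 gene models of gammaTry were listed at 0 in all 8 libraries, adults included. The flight muscle actin gene Act88F was at 0.335 to 1.74 FPKM in larvae. The age of the larvae within the third instar is not given, so a difference in age and one of genotype cannot be told apart.

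**Figure D3:**
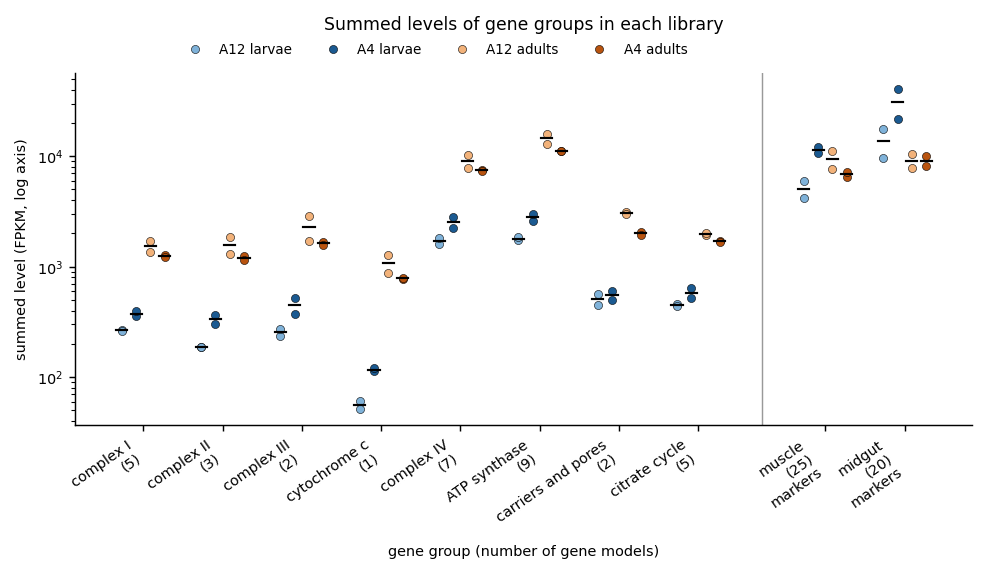
Summed level of each gene group in each library, in FPKM on a log axis, with points for single libraries and a bar for the mean of the 2 libraries of a group. In A4 larvae the sum of the 34 genes was 1.48-fold that of A12 larvae, muscle markers 2.24-fold and midgut markers 2.27-fold.

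In adults the genes stood on the other side of 0 and none passed. Of the 34 genes, 0 rose and 0 fell in A4 adults by limma, where 0.217% of all tested genes rose and 0.517% fell. At an unadjusted p under 0.05, 0 were higher and 7 were lower. The share of all tested genes at this looser threshold was not computed, so these counts have no value to be read beside. The median log2 change was -0.34, against -0.05 for all tested genes, and 31 of 34 were below 0. Both A4 libraries lay below both A12 libraries for 17 genes, where 26.2% of tested genes did so, and above for 1 gene, against 16.1%. That gene was ND75, at 0.22 ± 0.19. With the smallest adjusted p at 0.276, the data do not separate these differences from the spread between libraries.

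The lowest adult value was that of sun. Its levels were 126 and 102 FPKM in A12 adults and 54.2 and 51.8 FPKM in A4 adults, a log2 change of -1.08 ± 0.29 (adjusted p = 0.276). The groups did not overlap. The carrier gene sesB had 2228 and 1921 FPKM in A12 adults and 1065 and 1046 FPKM in A4 adults, a change of -0.97 ± 0.28 (adjusted p = 0.323). CoVb stood at 440 and 559 FPKM in A12 adults and 298 and 307 FPKM in A4 adults, at -0.71 ± 0.21 (adjusted p = 0.321). All 3 were separate between the genotypes without passing the threshold.

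Other adult values were closer to 0. Pdsw had 330.3 and 388 FPKM in A12 adults and 277 and 237 FPKM in A4 adults, a change of -0.48 ± 0.20. For skap the levels were 348 and 346 FPKM in A12 adults and 228 and 274 FPKM in A4 adults, a change of -0.47 ± 0.18. SdhC had 748 and 1372 FPKM in A12 adults and 782 and 751 FPKM in A4 adults, so the genotypes overlapped. In ox the A12 adults were as far apart, with 685 and 1515 FPKM. A12 adults replicate 2 was above replicate 1 in 27 of the 34 genes. The median log2 difference, replicate 2 minus replicate 1, was 0.29 for the 34 genes and -0.16 for all tested genes without small RNA genes. This library also had the highest share of small RNA genes, 81.4%. Muscle markers in A4 adults summed to 0.727 of those in A12 adults, and 0 of the 23 tested passed. Whether the muscle share bears on the adult values was not tested.

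From larvae to adults every one of the 34 genes rose, in both genotypes. In A12, 41.1% of all tested genes rose and 17.6% fell, and the median log2 change was 2.73 for the 34 genes against 0.48 for all. In A4, 55.8% rose and 13.9% fell, and the medians were 1.76 and 0.87. Both adult libraries lay above both larval libraries in all 34 genes in each genotype, where 53.3% of tested genes did so in A12 and 67.4% in A4. Without the library labelled A4 larvae replicate 2, which leaves 1 library of A4 larvae, nearly all of the 34 still rose in A4. Fewer of all tested genes rose in that fit, and their median log2 change was 0.90.

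The rise differed among the genes by a wide margin. It was greatest for Cyt-c-p, which reached 870 and 1284 FPKM in A12 adults and 777 and 793 FPKM in A4 adults. Its log2 change was 4.22 ± 0.24 in A12 (adjusted p = 8.35e-06), a ratio of mean FPKM of 19.2, and 2.74 ± 0.24 in A4 (adjusted p = 8.2e-05). After it in A12 came sesB at 3.63 ± 0.28, ATPsyn-beta at 3.53 ± 0.24 and RFeSP at 3.51 ± 0.24, which did not differ from each other beyond their errors. RFeSP reached 1041 and 1335 FPKM in A12 adults and 937 and 821 FPKM in A4 adults.

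The lowest rises in A12 were those of Scsalpha, at 1.16 ± 0.20, of porin, at 1.58 ± 0.26, and of skap, the partner subunit of Scsalpha, at 1.59 ± 0.18. In A4 Scsalpha was again lowest, at 1.18 ± 0.20, but it was followed by Mdh2 at 1.26 ± 0.22, cype at 1.30 ± 0.31 and Pdsw at 1.31 ± 0.20. The values of skap and porin in A4 were 1.44 ± 0.18 and 1.64 ± 0.26. By complex, the ratio of summed mean FPKM in A12 was 5.79 for complex I, 8.41 for complex II, 8.99 for complex III, 5.28 for complex IV, 8.09 for ATP synthase and 4.35 for the citrate cycle enzymes. In A4 the same ratios were lower and closer together, from 2.94 for the citrate cycle enzymes to 3.98 for ATP synthase, apart from cytochrome c at 6.73. Both genotypes' changes are given side by side, and no test was made between complexes.

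Within complexes the rise was also uneven. In complex I, ND23 reached 216 and 233 FPKM in A12 adults and 171 and 168 FPKM in A4 adults, a log2 change of 3.09 ± 0.19 in A12. Its fellow subunit gene mtacp1 changed by 2.29 ± 0.23, from 94.7 and 93.3 FPKM in A12 larvae to 388 and 556 FPKM in A12 adults. The same gene had 111 and 120 FPKM in A4 larvae and 433 and 386 FPKM in A4 adults. In ATP synthase blw reached 1781 and 1810 FPKM in A12 adults and 1649 and 1790.1 FPKM in A4 adults. It changed by 2.97 ± 0.20 in A12 and 2.17 ± 0.20 in A4, and the adult libraries of the genotypes overlapped.

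**Figure D4:**
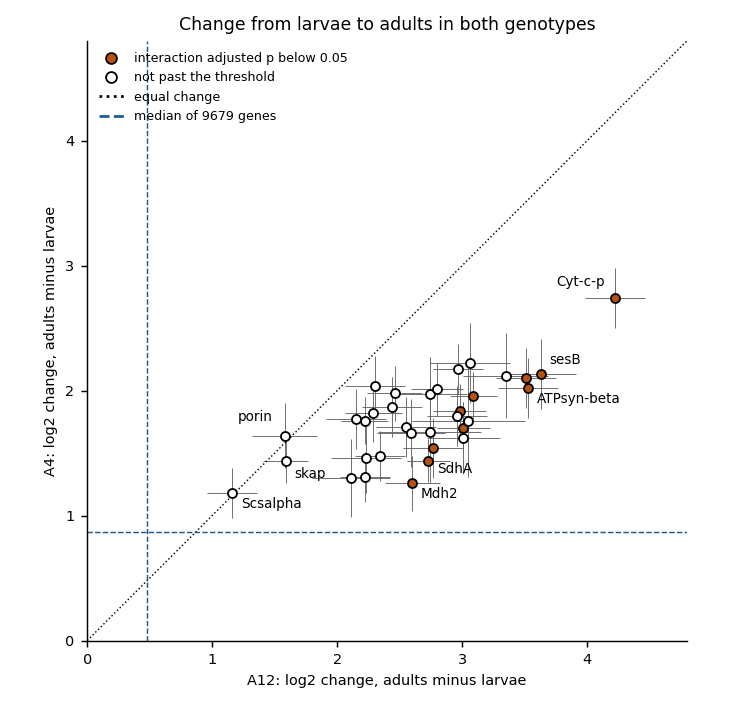
Log2 change from larvae to adults of each gene in A12 (horizontal) and in A4 (vertical), with bars of 1 standard error, the dotted line of equal change and dashed lines at the medians of all tested genes. All genes but Scsalpha and porin lie below the line of equal change, and the 10 filled genes passed the test of the interaction.

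Larvae and adults differ in tissue make-up, and the marker lists show it. Ovary and eggshell markers summed to 6.32 to 13.8 FPKM in larvae and 5461 to 13784 FPKM in adults. Muscle markers were 1.86-fold higher in A12 adults than in A12 larvae, with 13 of 23 up and 3 down. In A4 they stood at 0.603 of the larval sum, with 6 up and 11 down. The 6 included genes of the adult flight and leg muscles, such as the actin gene Act88F, which rose from 0.335 and 0.338 FPKM in A4 larvae to 420.4 and 613 FPKM in A4 adults, and fln, which rose from 0.48 and 0.763 FPKM to 122 and 163 FPKM. Midgut markers in adults were at 0.667 of the larval sum in A12 and 0.293 in A4. The part of these tissues in the stage change was not tested. With each library centred on its median log2 value, 33 of the 34 genes rose in A12, where 27.1% of all tested genes rose and 29.2% fell, and 19 rose in A4, where 23.5% of all tested genes rose and 30.0% fell.

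The test of the interaction asked whether the change from larvae to adults differed between the genotypes. Of the 34 genes, 10 had a smaller rise in A4 and 0 a larger one, where 6.75% of all tested genes had a smaller change and 10.9% a larger one. The median difference was -0.89, against 0.37 for all tested genes. The 10 genes came from every group of functions, with 2 in complex I, 1 in complex II, 1 in complex III, Cyt-c-p, 2 in complex IV, 1 in ATP synthase, sesB and Mdh2. In each of them A4 was higher than A12 in larvae and lower in adults, on group means.

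SdhA had the smallest p of the interaction. Its adult levels were 299 and 319 FPKM in A12 and 235 and 254.9 FPKM in A4, and the rise from larvae was 2.73 ± 0.17 in A12 and 1.44 ± 0.17 in A4. The difference between these rises was -1.28 ± 0.24 (adjusted p = 0.014). For ATPsyn-beta the difference was -1.52 ± 0.33 (adjusted p = 0.0243), for sesB -1.50 ± 0.40 (adjusted p = 0.0436) and for Mdh2 -1.34 ± 0.31 (adjusted p = 0.0285). Mdh2 reached 520 and 520.1 FPKM in A12 adults and 503 and 429 FPKM in A4 adults, and these libraries did not overlap between the genotypes.

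For Scsalpha the difference between the rises was 0.02 ± 0.28, with a 95% confidence interval of -0.64 to 0.69. For porin it was 0.06 ± 0.37, with an interval of -0.82 to 0.93, and for skap -0.15 ± 0.26, from -0.76 to 0.46. Intervals this wide do not show that the rises were equal. Of the muscle markers 8 of 23 had a smaller change in A4, and of the midgut markers 7 of 16, and their part in the interaction was not tested. Fewer of the 34 genes passed in every fit that left out 1 library, that labelled A4 larvae replicate 2 included. Apart from the fit without A12 larvae replicate 2, fewer of all tested genes had a smaller change as well. Median centring gave 16 genes, where 9.65% of all tested genes had a smaller change and 5.93% a larger one, and rescaling without small RNA genes gave 2, against 5.09% and 8.01%. SdhA passed in 7 of the 8 fits and each other gene in 1 to 3.

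Other genes of the same machinery were listed by function, and their counts are read against the shares of all tested genes, 8.75% for a rise in A4 larvae, 41.1% and 55.8% for a rise with stage in A12 and A4, and 6.75% for a smaller rise in A4. Of 26 tested further complex I genes, 3 rose in A4 larvae, 26 rose from larvae to adults in each genotype, and 7 had a smaller rise in A4. The larval count of these genes, 3 of 26, is close to the share of all tested genes. Of 9 further genes of complexes II to IV, 3 rose in A4 larvae, 8 rose with stage in A12 and 7 in A4, and 3 had a smaller rise. Of 3 further ATP synthase genes, 2 rose in A4 larvae, 3 rose with stage in both genotypes, and 0 had a smaller rise. Of 13 further citrate cycle and pyruvate dehydrogenase genes, 3 rose in A4 larvae, 12 rose with stage in A12 and 11 in A4, and 3 had a smaller rise. In A4 adults against A12 adults 0 of these genes rose or fell.

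Isocitrate dehydrogenase, a control point of the citrate cycle, was among them. In l(1)G0156, which RefSeq names Idh3a, the levels were 44.9 and 44.5 FPKM in A12 larvae and 87.6 and 87.1 FPKM in A4 larvae. It rose by 0.95 ± 0.17 (adjusted p = 0.00646). CG6439, named Idh3b, rose by 1.01 ± 0.20 (adjusted p = 0.00871), from 14.7 and 12.4 FPKM to 29.1 and 27.6 FPKM. The third subunit gene, CG5028, was listed at 0 in all larval libraries and at 321 to 508 FPKM in adults. A listed 0 may be a failed estimate, so no size of change is given for it, although it is counted above among the genes that rose with stage in both genotypes. CG10219, the SdhD gene, was listed at 0 in both A12 larvae and at 60.7 and 55.8 FPKM in A4 larvae. It is counted among the genes that rose in A4 larvae and with stage, and among those with a smaller rise in A4. The complex I genes CG15434 and CG34439 were listed at 0 in 4 and 3 of the larval libraries and are counted among the 26 that rose with stage, in each genotype.

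The rows that RefSeq links to the missing symbols also lay on the same side. CG9140, which RefSeq names ND-51, had 61.0 and 59.5 FPKM in A12 larvae and 94.0 and 92.6 FPKM in A4 larvae, a change of 0.62 that did not pass. CG4769, named Cyt-c1, changed by 0.91 in larvae and did not pass. Both rose from larvae to adults in both genotypes. The 13 subunits encoded in the mitochondrial genome were not analysed here.

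Regulators of mitochondrial gene expression stood below 0 in larvae. Of 8 tested, among them the mitochondrial transcription factor gene TFAM and the mitochondrial DNA polymerase gene tam, 0 passed in larvae by limma. In that comparison 8.75% of all tested genes rose and 25.9% fell. All 8 regulators stood below 0, from -0.82 to -0.34, with a median of -0.47 close to that of all tested genes. One of them, mtTFB2, was listed at 0 in 3 libraries. From larvae to adults 7 rose in A12, where 41.1% of all tested genes rose, and 8 in A4, where 55.8% did. For the interaction 0 passed, where 6.75% of all tested genes had a smaller change in A4 and 10.9% a larger one.

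Duplicate genes of respiratory subunits and citrate cycle enzymes, several of which are known for expression in the testis, were mostly listed at 0, which in these files may also be a failed estimate. Of 21 found, none reached 1 FPKM in 6 of the 8 libraries and 1 did in A12 adults replicate 2, but 11 did in the library labelled A4 larvae replicate 2. Cyt-c-d, the cytochrome c of the male germ line, was at 3.17 FPKM there and listed at 0 in the other 7. CG11043, which RefSeq names COX5BL, was at 4.05 FPKM there and at 5.13 FPKM in A12 adults replicate 2. In A4 larvae replicate 2 the duplicates summed to 30.6 FPKM, set against 8335 FPKM for the 34 genes.

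**Figure D5:**
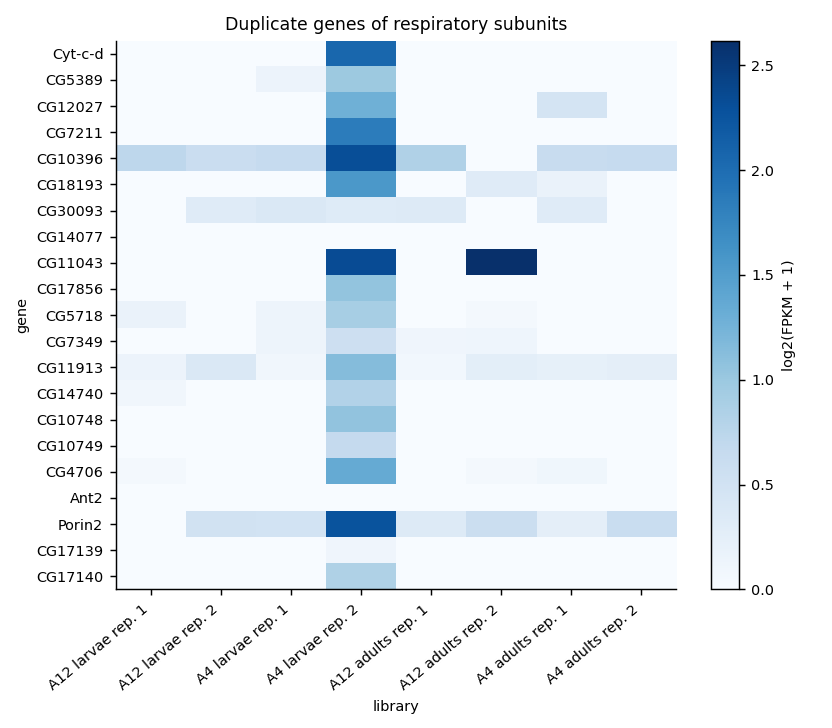
Level of 21 duplicate genes in each library on the log2(FPKM + 1) scale, with darker cells for higher levels. The column of A4 larvae replicate 2 stands apart, with 11 genes at 1 FPKM or more.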

How the data were processed

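For each of 8 libraries the authors deposited FPKM values with a confidence interval for each gene model. Cufflinks, TopHat 0.6, Bowtie2 and Bowtie were used with build dm3, per the submitters' processing notes. Their settings were not given in the sources used here. The labels' protocols say that polyA RNA was depleted of ribosomal RNA and made into TruSeq libraries. For 10 of the 34 genes the deposited upper bound lay below the FPKM itself in at least 1 library, so the bounds were not used as errors. A deposited table of log2 ratios was not used.

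Files were joined on gene name and position. Left out were 17 genes with a status of FAIL or HIDATA in any library. Of the rest, 9679 genes whose mean reached 1 FPKM were tested on log2(FPKM + 1), with a pseudocount of 1. All p-values are two-sided and come from limma 3.58.1 (R 4.3.3), in which the 4 groups were fitted together with a mean-variance trend, adjusted by Benjamini and Hochberg. This scale understates changes of low genes. The script was tested on simulated data. Python 3.11.15, pandas 2.3.3, numpy 2.4.6 and matplotlib 3.10.9 made the tables and figures. Gene names were matched to RefSeq, Release 6, for names only.

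The genes, lists and tests were chosen with earlier results of these data known. Values in every library are given, for each complex or pathway, for the gene with the highest mean FPKM and for the gene with the smallest p in each comparison. Other genes and libraries named with such values, which include Scsalpha, porin, kdn, ox, Acon's neighbours, the isocitrate dehydrogenase genes and the duplicates, were chosen after their values were seen. The alternatives were other pseudocounts (0.1 and 5), filters and scalings, a fit without trend, fits of only the 2 groups compared or with a replicate block, and leaving out each library.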

Additional observations from a re-analysis of the deposited data

Results flagged for a closer look

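For 10 genes the difference between A4 and A12 in larvae differed from that in adults, by the limma test of the interaction in 2 libraries per group. The values, the rise from larvae to adults in A4 minus that in A12 on the log2(FPKM + 1) scale, were -1.14 for ND42, -1.14 for ND23, -1.28 for SdhA, -1.42 for RFeSP and -1.48 for Cyt-c-p. They were -1.32 for CoVb, -1.23 for CoVIIc, -1.52 for ATPsyn-beta, -1.50 for sesB and -1.34 for Mdh2. The adjusted p-values ran from 0.014 for SdhA to 0.0457 for CoVIIc. In CoVIIc the levels were 195 and 189 FPKM in A12 larvae, 254 and 304 FPKM in A4 larvae, 1124 and 1547 FPKM in A12 adults, and 788 and 835 FPKM in A4 adults. In ND42 they were 44.4 and 42.5, 66.4 and 78.9, 299 and 409, and 255.4 and 268 FPKM in the same order.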

How the results depend on the processing

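The 0 calls in adults between genotypes held under every alternative. In larvae the count that rose, 11, was 21 after median centring. It was 2 with the compared groups only, where 422 of 9679 tested genes rose. With the replicate block on median-centred values it was 24, where 1366 rose. With 1 library left out it was mostly lower. Centring changed the split of all tested genes in larvae from 847 higher and 2507 lower to 1326 and 982, so relative to the median gene the larval difference is larger. With no library left out, the 34 genes that rose from larvae to adults in A12 stayed at 33 or 34. Of 9679 tested genes 3974 rose there, 2621 after centring and 2649 with the block on centred values. In A4 the count was 19 after centring, where 2273 of 9679 tested genes rose against 5397 on the deposited scale. It was 20 with the block on centred values, where 2280 rose. With 1 library left out nearly all of the 34 still rose in A4, and without any 1 of the A4 libraries fewer of all tested genes did. The 10 genes with a smaller rise in A4 became 16 after centring, 17 with the block on centred values, 2 after rescaling without small RNA genes, and 0 to 7 with 1 library left out. Of 9679 tested genes 653 had a smaller change in A4 on the deposited scale, 934 after centring and 963 with the block on centred values. After rescaling 493 did, or 5.09%, so the 2 of 34 there are close to the share of all tested genes. With 1 library left out fewer of all tested genes had a smaller change, apart from the fit without A12 larvae replicate 2. The larval value of porin reversed to 0.32 after centring, 0.32 with the block on centred values and between -0.44 and 0.15 with 1 library left out, the latter without A4 larvae replicate 1, and that of skap to 0.14 under both centred fits. Causes were not tested. Deviations of same-numbered libraries were correlated at only -0.0617 to 0.0857, which cannot show whether these libraries were handled together. With the replicate block alone 12 genes rose in larvae, where 885 of 9679 tested genes rose. In that fit 10 genes had a smaller rise in A4, where 664 of all tested genes had a smaller change. In larvae the median over genes of 5 span classes went from -0.10 for gene models up to 1000 bp to -0.60 over 5000 bp, while that of the 34 genes was 0.57 to 0.73 in every class. With 2 libraries per group and no read counts, precision is limited by their number.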
